A study of Mus musculus with 14 samples.

Results

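A set of 7 genes of the signalling route that starts at an immunoreceptor tyrosine-based activation motif (ITAM) were followed in mouse blood cells: Gp6, Clec1b, Fcer1g, Syk, Lat, Lcp2 and Plcg2. They were chosen by name, as 2 platelet receptors and 5 signalling genes that platelets share with leukocytes, out of 11481 genes with a symbol among the probes tested. Every probe other than a control whose transcript identifier maps to one of these symbols was taken, which gave 3 probes for Clec1b and 1 for each of the other 6 genes. All 9 probes were well above background on 14 of 14 arrays, so no member was lost to the filter on dim probes.

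RNA was measured on 14 one-colour Agilent arrays, 1 per mouse. The 8 SS mice had lived in a hostile social environment in the third postnatal week, and the 6 SI mice had been socially isolated; the design text places the isolation in the juvenile period, and the growth protocol in the third postnatal week. Both groups had been conditioned with a sub-threshold cocaine dose of 5 mg/kg and taken through extinction and withdrawal, and blood was drawn 24 hours after withdrawal. The groups were SS labelled male (4 mice) against SI labelled male (4 mice), and SS labelled female (4 mice) against SI labelled female (2 mice); neither strain nor age at sampling is given in the labels, and no unstressed or cocaine-free mouse was included.

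The cells are labelled PBMC, but per the labels red cells were lysed in EDTA blood and no gradient or sort is named. Platelet markers were bright on every array, with a mean scaled log2 level between 2.22 and 5.15, and markers of neutrophils and red cells were present too. The labelled males and labelled females lie on 2 slides that are also 2 scans, so sex label, slide and scan cannot be told apart. Sex-linked transcripts go against the sex labels: the Y-linked Eif2s3y and Ddx3y were well above background on 0 of 8 arrays of labelled males and on 6 of 6 arrays of labelled females. "Labelled" is therefore kept throughout, and SS and SI are compared within a slide. By the median over probes detected on all arrays, SI labelled male 4 had the dimmest array, at -1.06 on the log2 scale against the mean array. By the 75th percentile of those probes, the array of SI labelled female 28 was slightly dimmer (8.49 against 8.53 on the log2 scale). Results that rest on SI labelled male 4 are given with and without it.

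ITAM signalling works in a relay. A receptor that binds its ligand has the tyrosines of its own motif, or of a partner chain, phosphorylated by Src-family kinases; the kinase Syk docks there and phosphorylates the scaffold proteins LAT and SLP-76, which bring phospholipase C gamma 2 to the membrane to release calcium. In platelets the route is known for activation by collagen, through glycoprotein VI, and by podoplanin, through CLEC-2. Leukocytes use similar relays behind Fc receptors, B cell receptors and T cell receptors, in which some parts are exchanged. T cells use the related kinase ZAP-70 and a relative of phospholipase C gamma 2. In B cells BLNK is the counterpart of SLP-76.

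The 7 members did not change alike between SS and SI mice. Both platelet receptors and the adaptor Lat were higher in SS mice, by 2.89-fold for Gp6, 2.97-fold for Clec1b and 2.37-fold for Lat. The differences for the other 4 genes did not pass the test, with changes on the log2 scale of 0.50 for Lcp2, 0.12 for Syk, -0.08 for Fcer1g and -0.34 for Plcg2. Thus 3 of 7 members passed as higher and 0 of 7 as lower at an adjusted p under 0.05 (limma, Benjamini-Hochberg over 24013 probes), where 7.4% of all probes tested passed as higher and 0.571% as lower; 5 of 7 had an unadjusted p under 0.05, as did 20.3% of all probes. The median change of the 7 members was 0.50, and that of all probes was -0.04. Levels are bulk values, so fewer cells of a type and less RNA per cell cannot be told apart.

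The bases just upstream of the annotated gene start are shown for the 4 members whose SS values lay above all SI values on both slides, and for Plcg2, whose change ran the other way. They were taken from the RefSeq promoter table on build GRCm38.p6, in which all 7 members were found, and stop where the annotated gene begins; for Gp6 and Lat that lies upstream of the start site used in the table, so their stretches are shorter. Capitals mark the letters AGATAA, a form of the motif of GATA factors, and AGGAAG, a form of the motif of ETS factors, on either strand. Other forms, such as TGATAA in the stretch of Clec1b, were not searched for and are not marked. Both factor families act in megakaryocytes, the cells that make platelets.
Gp6 (chr7:4397852-4397994, minus strand): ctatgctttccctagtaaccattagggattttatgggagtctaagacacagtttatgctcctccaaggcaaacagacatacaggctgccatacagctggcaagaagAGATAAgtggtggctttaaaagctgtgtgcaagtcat
Clec1b (chr6:129397047-129397296, plus strand): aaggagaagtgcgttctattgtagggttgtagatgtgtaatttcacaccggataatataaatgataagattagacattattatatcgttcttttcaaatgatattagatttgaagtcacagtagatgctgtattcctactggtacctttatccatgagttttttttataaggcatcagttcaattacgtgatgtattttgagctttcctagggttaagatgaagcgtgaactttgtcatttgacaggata
Lat (chr7:126369706-126369818, minus strand): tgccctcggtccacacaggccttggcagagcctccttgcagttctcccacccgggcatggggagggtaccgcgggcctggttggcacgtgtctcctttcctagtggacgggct
Lcp2 (chr11:34046678-34046927, plus strand): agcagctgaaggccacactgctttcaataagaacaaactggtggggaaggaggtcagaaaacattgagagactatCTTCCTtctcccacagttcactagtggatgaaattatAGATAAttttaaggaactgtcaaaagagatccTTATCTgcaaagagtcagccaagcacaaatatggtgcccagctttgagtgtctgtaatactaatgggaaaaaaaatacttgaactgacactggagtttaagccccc
Plcg2 (chr8:117498025-117498274, plus strand): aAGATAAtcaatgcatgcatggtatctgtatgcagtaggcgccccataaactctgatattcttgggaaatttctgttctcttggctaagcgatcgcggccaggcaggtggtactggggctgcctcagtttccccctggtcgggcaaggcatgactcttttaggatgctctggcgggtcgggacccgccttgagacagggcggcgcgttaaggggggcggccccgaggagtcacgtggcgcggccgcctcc
In windows of 300 bases around the start (250 before and 50 after), AGATAA or its reverse complement TTATCT was found in 4 of 7 members and in 11.2% of all 32851 windows. Counted from the start site of the table, the first base of the match lay 144 bases before it in Gp6, 138 and 106 before it in Lcp2 and 249 before it in Plcg2, while in Clec1b it lay 37 bases after the start, outside the stretch printed. AGGAAG or CTTCCT was found in 3 of 7 members (Fcer1g, Lat and Lcp2) and in 35.4% of windows. TGTGGT or ACCACA, a RUNX-type motif, was found in 2 of 7 (Fcer1g and Lat) and in 16.8% of windows. The 3 motifs do not overlap each other in these 7 genes, and the matches describe letters only. Of the 3 members that passed as higher, Gp6 and Clec1b hold AGATAA or TTATCT in these windows and Lat does not.

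**Figure D1:**
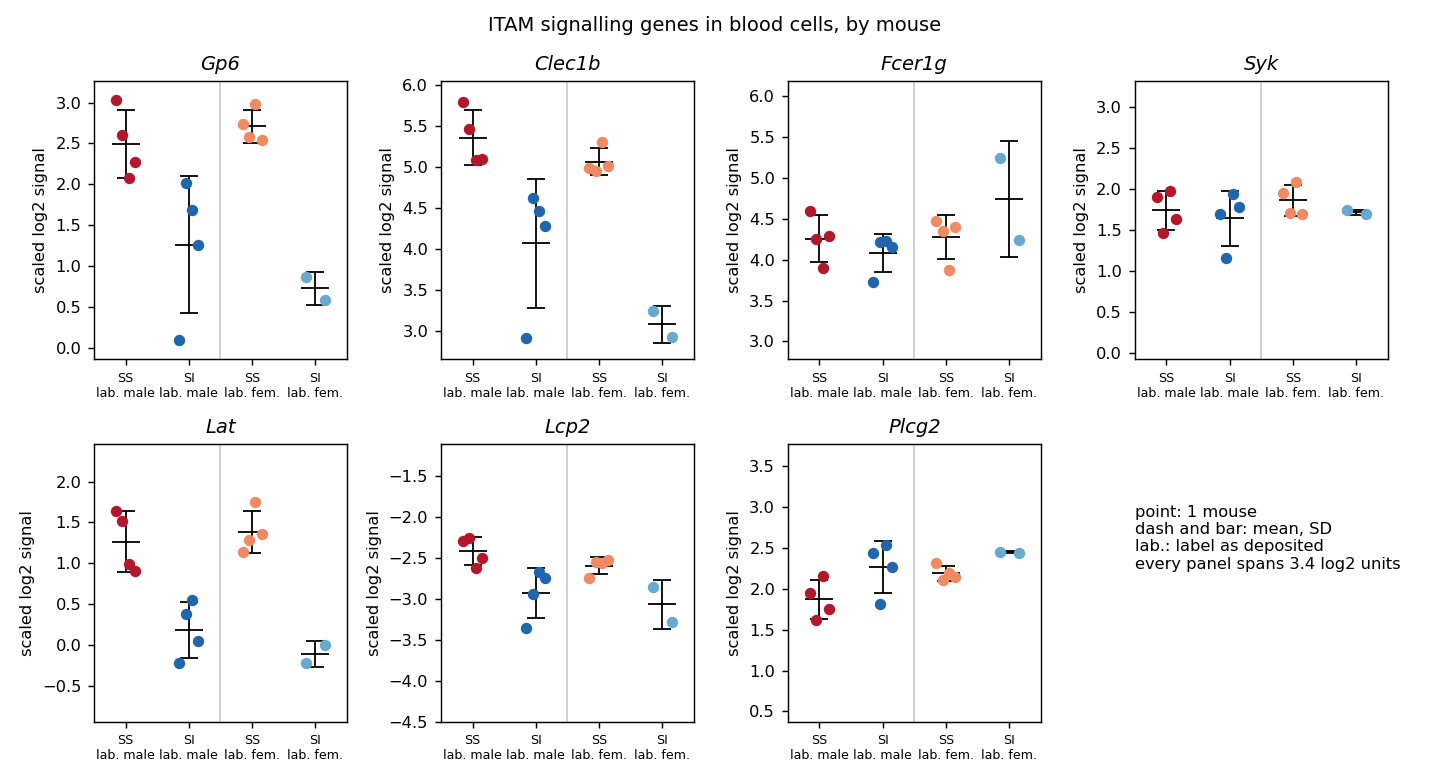
Scaled log2 signal (y axis) of the 7 members in each mouse, with SS left of SI on each slide; points are mice, dashes and bars the mean and SD, and every panel spans the same range. In Gp6, Clec1b, Lat and Lcp2 every SS mouse stands above every SI mouse of its slide, while in Fcer1g and Syk the groups overlap.

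Gp6 encodes glycoprotein VI, the platelet collagen receptor, which has no motif of its own and signals through the Fc receptor gamma chain. Its gene lies on chromosome 7 (GRCm38.p6, 4362853 to 4397851). Its level, as log2 processed signal scaled by the 75th percentile of probes detected on all arrays, was 3.03, 2.60, 2.08 and 2.28 in SS labelled males 1, 2, 3 and 01b, against 0.09, 2.01, 1.69 and 1.25 in SI labelled males 6, 4, 7 and 5. In SS labelled females 22, 20, 23 and 21 it was 2.74, 2.58, 2.99 and 2.54, against 0.87 and 0.59 in SI labelled females 27 and 28. The groups did not overlap on either slide, but in labelled males the gap between SS mouse 3 and SI mouse 4 was small, and SI mouse 6 lay far under the other 3. The mean was 2.50 ± 0.42 in SS and 1.26 ± 0.84 in SI labelled males (SD, n = 4 each), and 2.71 ± 0.20 in SS (n = 4) and 0.73 ± 0.20 in SI labelled females (n = 2). Over all mice the log2 change was 1.53 ± 0.29 (SE; 95% interval 0.92 to 2.14), with an adjusted p of 0.00501 by limma.

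Clec1b encodes CLEC-2, the podoplanin receptor of platelets and megakaryocytes, which carries a shortened form of the motif and also depends on Syk. Its gene lies on chromosome 6 (129397297 to 129405413). The brightest of its 3 probes stood at 5.80, 5.46, 5.08 and 5.10 in SS labelled males 1, 2, 3 and 01b, against 2.91, 4.62, 4.46 and 4.27 in SI labelled males 6, 4, 7 and 5. On the other slide it stood at 4.99, 4.96, 5.31 and 5.01 in SS labelled females 22, 20, 23 and 21, against 3.24 and 2.92 in SI labelled females 27 and 28. The order of mice was much like that of Gp6, with SI labelled male 6 again the lowest of its slide and no overlap on either slide. The log2 change over all mice was 1.57 ± 0.26 (SE; 95% interval 1.01 to 2.14; limma adjusted p = 0.00475). The other 2 probes gave 1.52 and 1.64, so the 3 probes did not disagree.

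Lat encodes the transmembrane adaptor LAT, which Syk or ZAP-70 phosphorylates and which is used by T cells, mast cells and platelets. It lies on chromosome 7 (126363827 to 126369705). Its level was 1.64, 1.52, 0.99 and 0.91 in SS labelled males 1, 2, 3 and 01b, against -0.22, 0.38, 0.55 and 0.05 in SI labelled males 6, 4, 7 and 5. In SS labelled females 22, 20, 23 and 21 the level was 1.14, 1.29, 1.75 and 1.36, against -0.22 and 0.00 in SI labelled females 27 and 28. Every SS mouse was above every SI mouse of its slide, and Lat stood closer to the receptors than to the other shared genes in its change, at 1.24 ± 0.19 (SE; 95% interval 0.84 to 1.65; limma adjusted p = 0.00475). Of the T cell markers, which LAT accompanies in lymphocytes, 0 of 11 tested passed as higher or lower by limma (1 higher and 0 lower at an unadjusted p under 0.05), with a median change of -0.60. Their mean level lay between -2.90 and -1.45 in SS and between -2.57 and -0.68 in SI labelled males, and between -1.91 and -1.10 in SS and between -1.75 and -0.53 in SI labelled females. The part of T cells in the change of Lat was not tested.

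Lcp2 encodes SLP-76, the cytosolic partner of LAT, and lies on chromosome 11 (34046928 to 34092281). Its level was -2.29, -2.25, -2.62 and -2.49 in SS labelled males 1, 2, 3 and 01b, against -3.35, -2.94, -2.66 and -2.74 in SI labelled males 6, 4, 7 and 5. In labelled females it was -2.75, -2.55, -2.55 and -2.52 in SS mice 22, 20, 23 and 21, against -2.85 and -3.28 in SI mice 27 and 28. The groups again did not overlap on either slide, but the nearest SS and SI mice were close, and the change of 0.50 ± 0.15 (SE; 95% interval 0.18 to 0.81) had an unadjusted p of 0.00496 and an adjusted p of 0.0579 by limma. It passed without SI labelled male 4 (0.49, limma adjusted p = 0.0426), where 10% of all probes passed as higher.

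Every SS mouse therefore lay above every SI mouse of its slide for 4 of 7 members, against 5.11% of all probes, and for 0 of 7 members did every SS mouse lie below, against 0.483% of all probes. In the exact two-sided permutation test within slides, with 1050 assignments, these 4 genes each gave the smallest p it allows, 0.000952. Only a gene without overlap in the same direction on both slides can reach that p. It therefore restates the count above and is no separate support for it.

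Fcer1g encodes the gamma chain that carries the motif for glycoprotein VI in platelets and for Fc receptors in monocytes, neutrophils, NK cells and mast cells; it lies on chromosome 1 (171229572 to 171234349). It stood at 4.60, 4.25, 3.89 and 4.29 in SS labelled males 1, 2, 3 and 01b, against 3.73, 4.21, 4.23 and 4.16 in SI labelled males 6, 4, 7 and 5. In labelled females it was 4.47, 4.35, 3.87 and 4.40 in SS mice 22, 20, 23 and 21, against 5.24 and 4.24 in SI mice 27 and 28. The groups overlapped on both slides, and the single highest value belonged to SI labelled female 27. The log2 change was -0.08 ± 0.21 (SE; 95% interval -0.52 to 0.37; limma adjusted p = 0.852), and the exact permutation p was 0.711. The direction rested on 1 mouse: without SI labelled female 27 the change was 0.14. The partner chain of Gp6 thus did not share the change of Gp6, and the test of their difference is given with the pairs.

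Syk, the kinase that binds the phosphorylated motif in platelets, B cells and myeloid cells, lies on chromosome 13 (52582610 to 52648792). Its level was 1.91, 1.46, 1.97 and 1.63 in SS labelled males 1, 2, 3 and 01b, against 1.69, 1.16, 1.93 and 1.78 in SI labelled males 6, 4, 7 and 5. In labelled females it was 1.95, 1.71, 2.08 and 1.70 in SS mice 22, 20, 23 and 21, against 1.74 and 1.69 in SI mice 27 and 28. SS and SI mice were intermingled, and the change of 0.12 ± 0.16 (SE; 95% interval -0.22 to 0.46; limma adjusted p = 0.693) was smaller than the spread within a group of labelled males.

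Plcg2 encodes phospholipase C gamma 2, which produces the calcium-releasing messenger in platelets, B cells and myeloid cells; it lies on chromosome 8 (117498275 to 117635142). It stood at 1.95, 1.62, 2.16 and 1.75 in SS labelled males 1, 2, 3 and 01b, against 2.44, 1.82, 2.53 and 2.27 in SI labelled males 6, 4, 7 and 5. In labelled females it was 2.32, 2.11, 2.20 and 2.14 in SS mice 22, 20, 23 and 21, against 2.45 and 2.44 in SI mice 27 and 28. SI labelled males 6, 7 and 5 lay above every SS labelled male, and SI labelled male 4 lay among them; all SS labelled females lay below both SI labelled females, which 18.2% of all probes did on that slide. The change was -0.34 ± 0.15 (SE; 95% interval -0.66 to -0.02), with an unadjusted p of 0.0405 and an adjusted p of 0.219 by limma, and an exact permutation p of 0.021. It passed as lower without SI labelled male 4 (-0.42, limma adjusted p = 0.0491), where 6.03% of all probes did.

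**Figure D2:**
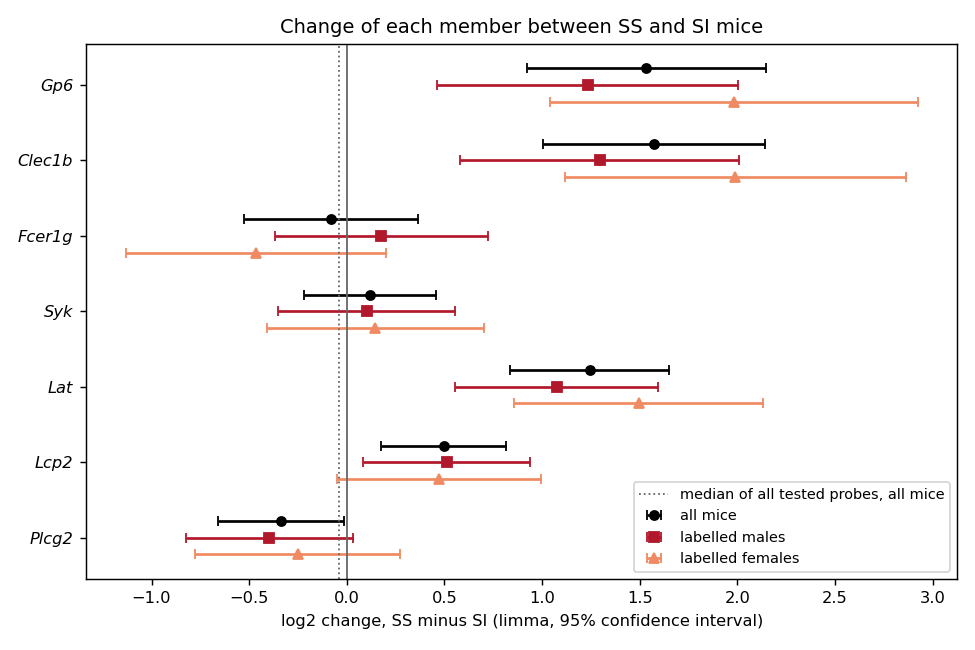
Log2 change, SS minus SI, of each member (x axis) with its 95% interval from limma, in all mice, labelled males and labelled females; the dotted line is the median of all tested probes at -0.04. Gp6, Clec1b and Lat lie to the right of 0 in each comparison, the intervals of Fcer1g and Syk span 0, and that of Plcg2 lies left of 0 in all mice and spans 0 within each slide.

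Clec1b, Gp6 and Lat had the largest changes of the 7 members on each slide, with Lcp2 next. Among labelled females, 3 of 7 members passed as higher (Gp6 1.98 ± 0.44, limma adjusted p = 0.0299; Clec1b 1.99 ± 0.40, 0.0259; Lat 1.50 ± 0.30, 0.0238), where 3.18% of all probes did, and 0 of 7 passed as lower, against 0.82%. With 2 SI mice this call is fragile. Leaving out SS mouse 20, 21 or 23 left 0 of 7, where 0.196%, 0.229% and 0.0666% of all probes passed as higher. Leaving out SS mouse 22 left 1, where 0.458% of all probes passed. The loss of calls was thus shared by the whole array. Without SI mouse 27 or 28 only 1 SI labelled female remains. The changes were then 2.12 and 1.84 for Gp6, 2.15 and 1.83 for Clec1b, and 1.38 and 1.61 for Lat. Among labelled males limma called 0 of 7 members and 0% of all probes, while 4 of 7 members and 23.7% of all probes had an unadjusted p under 0.05. Their changes were 1.23 ± 0.36 for Gp6 (adjusted p = 0.0868), 1.30 ± 0.33 for Clec1b (0.0852) and 1.08 ± 0.24 for Lat (0.0852). Without SI labelled male 4 these 3 passed as higher and Plcg2 as lower (-0.54, limma adjusted p = 0.0273), but in that setting 22.1% of all probes passed as higher and 17.1% as lower.

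The changes of the members on the 2 slides were also set against each other directly. None of the 7 interaction terms passed in limma, with adjusted p of 0.515 or more and 0 at an unadjusted p under 0.05 (12.6% of all probes), and 0.0458% of all probes passed. The median change of all probes in labelled males was 0.09, and it became -0.09 when the arrays were scaled by the 75th percentile of all probes or by quantiles, which moved Syk to -0.08 and -0.06 there. Within labelled males the exact permutation p was 0.0286 for Gp6, Clec1b, Lat and Lcp2, the smallest that 70 assignments allow. Any gene without overlap between SS and SI on that slide reaches it, and the share of all probes that do is not given here. By limma, 23.7% of all probes had an unadjusted p under 0.05 in labelled males and 15.8% in labelled females. Within labelled females the smallest possible p was 0.0667, reached by those 4 genes and by Plcg2. Only a gene without overlap on that slide can reach it. Every SS mouse lay below every SI mouse there for 18.2% of all probes, and the share that lay above is not given here.

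The platelet receptors were then contrasted with each shared gene within the same array, a difference from which any factor common to all probes of an array drops out; quantile normalization and the authors' log2 table can still move it. For Clec1b and Syk, the log2 ratio was 3.89, 4.00, 3.11 and 3.47 in SS labelled males 1, 2, 3 and 01b, against 1.21, 3.46, 2.53 and 2.49 in SI labelled males 6, 4, 7 and 5. It was 3.04, 3.24, 3.23 and 3.31 in SS labelled females 22, 20, 23 and 21, against 1.50 and 1.23 in SI labelled females 27 and 28. SI labelled male 4 reached the range of its SS neighbours in this ratio, and the other 5 SI mice stayed below all SS mice of their slide. Of 10 pairs compared, 8 differed at an exact two-sided permutation p under 0.05 after Benjamini-Hochberg adjustment over the 10. The pairs share genes, and Gp6 and Clec1b ran together within groups (r = 0.976), so the 8 are not separate results. The share for other pairs of probes is not given here.

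The change of Gp6 exceeded that of its own partner chain Fcer1g by 1.61 ± 0.32 on the log2 scale (SE; exact permutation p = 0.000952, adjusted 0.00238). It exceeded that of Syk by 1.41 ± 0.34 (adjusted exact p = 0.00408), that of Plcg2 by 1.87 ± 0.35 (adjusted exact p = 0.00317) and that of Lcp2 by 1.04 ± 0.24 (adjusted exact p = 0.00476). Clec1b exceeded Fcer1g by 1.65 ± 0.30, Syk by 1.45 ± 0.31, Plcg2 by 1.91 ± 0.32 and Lcp2 by 1.08 ± 0.21, with adjusted exact permutation p between 0.00238 and 0.00317. All 8 differences were positive on each slide. Only the contrast with Lat did not pass for either receptor: 0.29 ± 0.19 for Gp6 (adjusted exact p = 0.163) and 0.33 ± 0.17 for Clec1b (adjusted exact p = 0.0772). Without SI labelled male 4 both passed, at 0.41 with an adjusted exact p of 0.0233 for Gp6 and at 0.41 with 0.0248 for Clec1b, so these data do not show that Lat changed as much as the receptors.

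**Figure D3:**
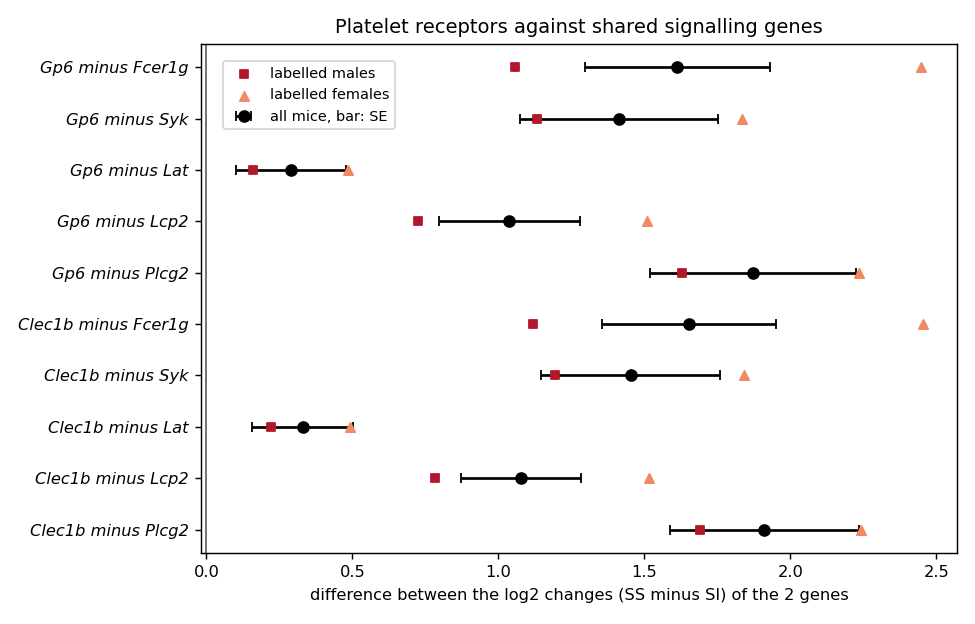
Difference between the log2 changes (SS minus SI) of a platelet receptor and a shared gene (x axis) for the 10 pairs, in all mice with the SE as a bar, and in labelled males and labelled females as points. All points lie to the right of 0, and the pairs with Lat lie nearest to it.

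Cell type markers give the setting of these changes. Of 16 platelet markers tested, 16 passed as higher in SS mice, with a median change of 1.56, close to the changes of Gp6 and Clec1b. Their mean level lay between 4.30 and 5.15 in SS and between 2.22 and 4.28 in SI labelled males, and between 4.35 and 4.72 in SS and between 2.59 and 2.87 in SI labelled females. Of the leukocyte lists, 0 of 8 monocyte, 0 of 12 neutrophil, 0 of 10 B cell, 0 of 6 NK cell and 0 of 8 dendritic cell markers passed in either direction by limma over all mice, nor did any of 7 red cell markers. At an unadjusted p under 0.05, 1 monocyte marker was lower, 1 neutrophil marker higher and 2 lower, 2 dendritic cell markers higher and 1 lower, and 1 red cell marker lower. Of 5 eosinophil, basophil and mast cell markers tested, 1 (Gata2, a transcription factor that megakaryocytes also use) passed as higher at 1.69. The median changes were -0.34 for monocyte, -0.84 for neutrophil, 0.00 for B cell, -0.67 for NK cell, -0.16 for dendritic cell and -0.81 for red cell markers. Without SI labelled male 4, 5 of 12 neutrophil markers were lower and 1 higher. Among labelled females 7 of 12 neutrophil markers were lower in SS mice, with a median change of -2.19; their mean level there lay between 0.57 and 0.95 in SS and between 2.94 and 3.88 in SI mice. Among labelled males the neutrophil markers ran the other way, with a median change of 0.41, 0 of 12 passing by limma and 5 higher and 0 lower at an unadjusted p under 0.05. Their mean level there lay between 1.81 and 2.16 in SS and between 0.78 and 1.64 in SI mice, and 4 of 12 passed in the difference between the slides. The part of platelet or neutrophil content in the changes of the members was not tested.

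Within groups, each member was also set against the cell type markers from mouse to mouse. With group means removed, Gp6 correlated with the mean of the platelet markers at r = 0.972 and rho = 0.943 over 14 arrays (permutation p = 8e-05 and 0.00014; adjusted over 63 relations 0.00252 and 0.00441), and at r = 0.916 without SI labelled males 4 and 6. Clec1b gave r = 0.961 and rho = 0.982 (adjusted permutation p = 0.00252 and 0.00441), and r = 0.936 without those mice. Lat gave r = 0.687 and rho = 0.758 (adjusted permutation p = 0.114 and 0.0941), and Lcp2 gave r = 0.686 and rho = 0.626 (adjusted permutation p = 0.284 and 0.202). These 2 adaptors thus leaned the same way as the receptors, without passing the adjustment. Fcer1g passed with no list. It leaned with the monocyte markers, at r = 0.843 and rho = 0.706 (adjusted permutation p = 0.112 and 0.272). That r was 0.483 without SI labelled female 28 and SS labelled female 23. Fcer1g leaned against the B cell markers, at r = -0.843 and rho = -0.60 (adjusted permutation p = 0.110 and 0.380). That r was -0.615 without SI labelled female 28 and SS labelled male 3. Against the T cell markers it gave r = -0.760 and rho = -0.692 (adjusted permutation p = 0.110 and 0.153). Plcg2 ran against the red cell markers, at r = -0.929 and rho = -0.939 (adjusted permutation p = 0.0176 and 0.00504), and r was -0.836 without SI labelled males 4 and 7. Syk leaned against the same list without passing the adjustment, at r = -0.847 and rho = -0.798 (adjusted permutation p = 0.0718 and 0.0673), with r = -0.638 without those mice. Arrays that share a slide share its scan, and every value here also shares the scaling of its array.

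**Figure D4:**
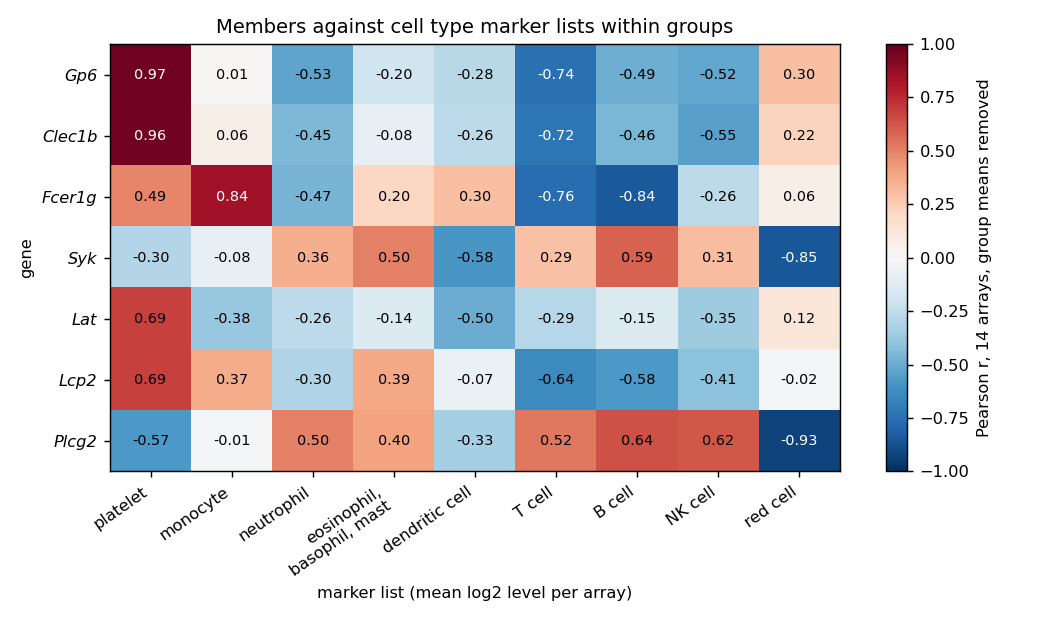
Pearson r between each member (down the page) and the mean log2 level of each marker list (across), over 14 arrays with group means removed; red is positive and blue negative. Gp6 and Clec1b stand at 0.97 and 0.96 against platelet markers, and Plcg2 at -0.93 against red cell markers.

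Among themselves, Gp6 and Clec1b were the closest pair, with a within-group r of 0.976 over 14 arrays, followed by Syk and Plcg2 at 0.903, Lcp2 and Clec1b at 0.796 and Lat and Gp6 at 0.767. The genes whose within-group pattern was most like that of Gp6 were P2rx1 (0.995), Ecm1 (0.993) and Cd151 (0.991). For Clec1b they were Ssx2ip (0.993), Ptpn11 (0.990) and Gata1 (0.989). Lat was most like Afg3l2 (0.956), Stx16 (0.939) and St7 (0.916), and Lcp2 most like Adam9 (0.897), Pdzk1ip1 (0.893) and Acer2 (0.884). The likest genes were Cst3 (0.933), Cln8 (0.925) and Ino80c (0.896) for Fcer1g, Anxa11 (0.973), Sgta (0.954) and Gle1 (0.952) for Syk, and Ess2 (0.982), Stub1 (0.975) and Vps8 (0.975) for Plcg2. These are descriptive Pearson r over the same 14 arrays.

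The wider pathway was described by lists of 134 genes, ordered by role, which include the members. The lists also share genes with the marker lists, such as Gp1ba, Itga2b and Treml1 with the platelet markers, so their counts are not independent of those above. Of 14 tested platelet receptors and regulators, 13 were higher in SS mice and Fcer1g alone was not, with a median change of 1.47. Besides the members, the examples with the lowest adjusted p were Fermt3 (1.46 ± 0.24, limma adjusted p = 0.00475), which encodes the integrin activator kindlin-3, Itga2 (1.50 ± 0.25, 0.00475), a collagen-binding integrin subunit, and Gp1ba (1.65 ± 0.30, 0.00489), a subunit of the von Willebrand factor receptor. Of 18 other ITAM receptors and chains tested, mostly of leukocytes, 0 passed in either direction by limma (0 higher and 6 lower at an unadjusted p under 0.05), with a median of -0.51. Tyrobp, the DAP12 chain of myeloid and NK cells, changed by -0.72 ± 0.27 (limma adjusted p = 0.143). Without SI labelled male 4, a setting chosen after the data were seen, 6 of these 18 passed as lower, Tyrobp among them (-0.92, limma adjusted p = 0.0139).

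Among 20 kinases tested, 3 were higher and 2 lower in SS mice, with a median of -0.20. Prkcq, a protein kinase C of T cells and platelets, changed by 1.22 ± 0.18 (limma adjusted p = 0.00475). Fyn, a Src-family kinase, changed by 1.02 ± 0.18 (0.00475), and Pik3cb, a phosphoinositide 3-kinase subunit, by 0.77 ± 0.17 (0.0102). The 2 lower kinases were Fgr, a myeloid Src-family kinase (-0.72 ± 0.20, limma adjusted p = 0.0426), and the Tec-family kinase Bmx (-0.81 ± 0.23, 0.0452). Bmx changed by -1.68 in labelled females and by -0.23 in labelled males (limma adjusted p = 0.00928 and 0.404). Its difference between the slides did not pass (limma adjusted p = 0.093). Lyn, which phosphorylates motifs in platelets and B cells, did not pass at 0.49 ± 0.15 (limma adjusted p = 0.0646), nor did Btk at 0.06, Tec at 0.20, Blk at 0.08, Lck at -0.60, Txk at -0.46 or Zap70, the T cell relative of Syk, at -0.65. Src and Yes1 were not tested, because too few arrays had them above background.

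Among 24 adaptors and exchange factors tested, 5 were higher and 0 lower, with a median of -0.10. Besides Lat they were Nck2, a link to actin (1.41 ± 0.27, limma adjusted p = 0.00535), Skap2 (0.93 ± 0.21, 0.0108), the negative regulator Sla (0.63 ± 0.16, 0.0241) and Grap2, which encodes the GADS protein that joins LAT to SLP-76 (0.86 ± 0.24, 0.0438). Vav1 (-0.40), Vav3 (-0.34), Lat2 (-0.29) and Blnk (-0.18), the counterpart of SLP-76 in B cells, did not pass. Of 18 phospholipases and downstream genes, 3 were higher and 0 lower, with a median of -0.26: the calcium sensor Stim1 (0.88 ± 0.17, limma adjusted p = 0.00512), the calcium channel Itpr2 (0.87 ± 0.17, 0.00517) and the kinase Itpkb (0.89 ± 0.26, 0.0491). Plcg1, the T cell relative of Plcg2, changed by -0.31 ± 0.46 (limma adjusted p = 0.729). Of 24 inhibitors, 2 were higher and 0 lower, with a median of -0.28, namely the phosphatase SHP2 gene Ptpn11 (1.16 ± 0.21, limma adjusted p = 0.00489) and Sh2b3 (0.73 ± 0.17, 0.0133).

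The share of each list called higher can be read against the 7.4% of all probes, and the counts called lower depended on 1 array. Without SI labelled male 4, 4 kinases were higher and 4 lower, 6 adaptors higher and 3 lower, 3 downstream genes higher and 2 lower, and 2 inhibitors higher and 6 lower, while 10% of all probes passed as higher and 6.03% as lower. The 13 of 14 platelet receptors and regulators were higher in that setting too.

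**Figure D5:**
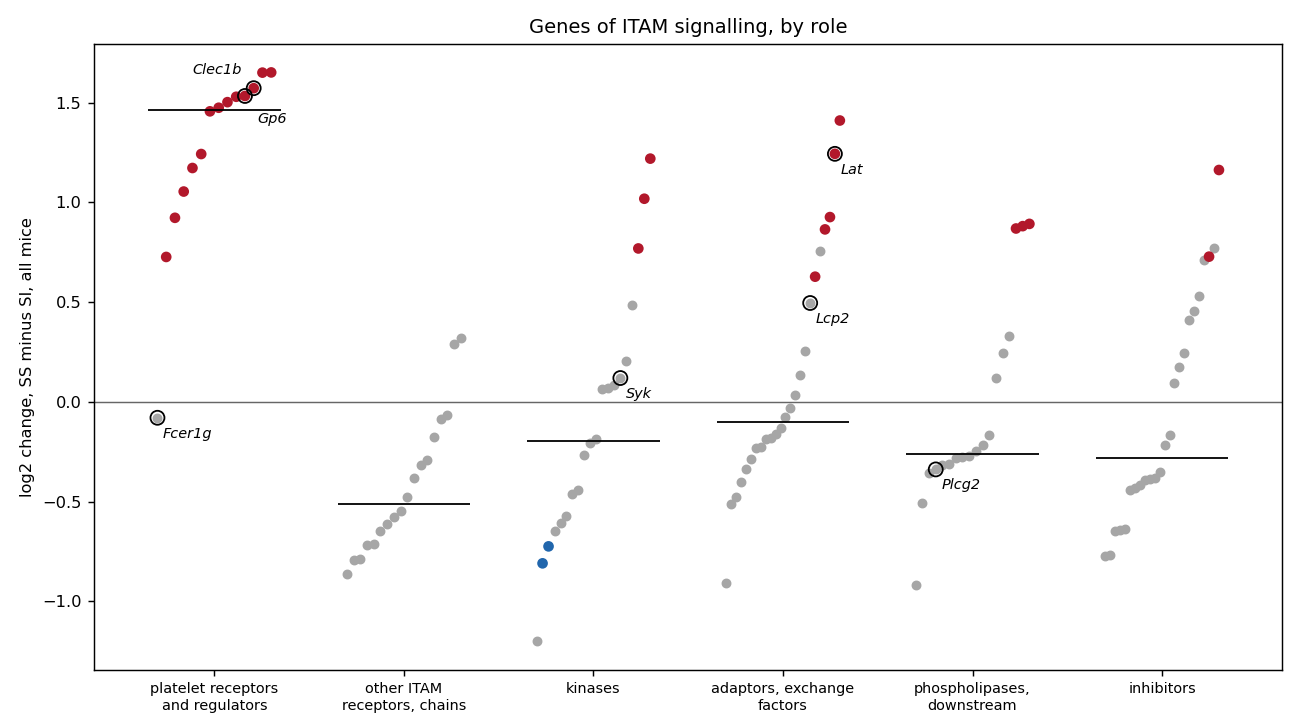
Log2 change, SS minus SI in all mice (y axis), of the tested genes of 6 pathway lists; red points passed as higher and blue as lower at an adjusted p under 0.05 by limma, grey points did not pass, lines are list medians and rings are the 7 members. The platelet list lies near 1.47 with Fcer1g near 0, and the other 5 medians lie between -0.51 and -0.10.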

How the data were processed

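RNA of 14 mice was hybridised to one-colour Agilent arrays. Processed signals are deposited as fluorescence intensity, background-subtracted by the scanner software; the file headers name Agilent Feature Extraction version 10.7.3.1 and the submitters' processing notes version 9.1. The other deposited columns are flags, such as well above background, per the file headers. A log2 value table of the authors, with a normalization not given in the sources used here, served as an alternative.

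Control spots (3671 of 62976) and outlier spots were left out, and no spot was saturated. Spots of a probe were averaged as log2 signal (55681 probes), and arrays were scaled on the 75th percentile over 14504 probes detected everywhere, because most spots were not detected. Between 34.8% and 47.7% of spots were well above background, and the number of arrays limits the precision. Testing covered 24013 probes, each detected on 6 or more of the 14 arrays. Symbols came from RefSeq identifiers (26425 of 31063 matched), and a gene with several probes is given by its brightest one. SS was compared with SI in limma 3.58.1 (R 4.3.3) with the slide as a term, and within slides in a fit of 4 groups, with Benjamini-Hochberg adjustment over all probes. Single members and pairs of members were also tested by exact permutation within slides. The fit was tested on simulated data. The arrays were annotated on an older build, so gene positions come from RefSeq and not from the probes.

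Members and lists were chosen with earlier results of these data known. Genes of the pathway lists were named as the 4 with the lowest adjusted p per list and direction, plus fixed partners of the members, some of which are not reported here. The labels do not say whether mice of a group shared a cage or litter.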

Additional observations from a re-analysis of the deposited data

Results flagged for a closer look

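In groups of 4, 3 of 21 member levels stood apart from the other mice of their group by Dixon's test at the 95% level, where chance gives about 1 in 20. Clec1b in SS labelled female 23 was 5.31 on the scaled log2 scale, and the nearest mouse of the group was at 5.01. Fcer1g in SI labelled male 6 was 3.73, and the nearest mouse was at 4.16. Lcp2 in SS labelled female 22 was -2.75, and the nearest mouse was at -2.55.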

How the results depend on the processing

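Over all mice, the higher calls of Gp6 (0.80 to 1.70), Clec1b (0.92 to 1.70) and Lat (0.74 to 1.33) held under all 24 alternatives: other scalings, normexp background correction, the authors' log2 table, other filters, array weights, slide and row as a block, and each mouse left out. Lcp2 passed as higher under 4 of them (adjusted p 0.0139 to 0.0493 by limma), where 8.19% to 20.9% of all probes did. With array weights 1 member, Plcg2, was lower over all mice, where 23.5% of all probes were called lower. Among labelled males 4 members were then higher and 1 lower, where 32.7% of all probes were called higher and 25.8% lower. Among labelled females, 0 members were higher with no filter on dim probes, where 0.0323% of all probes were. With slide and row as a block 1 member was higher, where 0.554% of all probes were. Leaving out 1 mouse gave 0 to 3 members higher and 0 to 1 lower among labelled males, and 0 to 1 lower over all mice. The upper ends came without SI labelled male 4. There 22.1% of all probes were higher and 17.1% lower among labelled males, and 6.03% lower over all mice. Among labelled females, leaving out 1 SS mouse or 1 labelled male gave 0 to 3 members higher. The share of all probes ran from 0.0666% (without SS labelled female 23) to 5.48% (without SI labelled male 4).

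Direction changed for Fcer1g, for Syk and for the difference of Lcp2 between slides. With the 75th percentile of all probes, Fcer1g in labelled males was -0.00075, Syk -0.077 and the difference of Lcp2 between slides -0.30. With quantile normalization Syk in labelled males was -0.064 and that difference of Lcp2 -0.062, and with the median scaling the difference of Syk was 0.0068. With array weights, over all mice Fcer1g was 0.076 and Syk -0.077, and in labelled males Syk was -0.14. Over single mice left out, Fcer1g ran from -0.17 to 0.14 over all mice, in limma and in the permutation test alike, and from -0.97 to 0.034 in labelled females; Syk ran from -0.060 to 0.20 in labelled males. Between slides, Syk ran from -0.21 to 0.052 and Lcp2 from -0.17 to 0.25. The cause of these changes was not tested.

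Exact tests were run under 20 alternatives. The contrast of Gp6 with Lcp2 did not pass in the authors' log2 table (0.30, adjusted exact p = 0.0833), and that of Clec1b with Lat passed with normexp (0.42, adjusted exact p = 0.0191) and without SI labelled male 5. The exact p of Plcg2 was 0.105 with the percentile of all probes, and that of Lcp2 0.0571 with normexp.

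Without SI labelled male 4, 2409 probes were higher and 1449 lower over all mice, against 1778 and 137 with it; with array weights 5010 were higher and 5639 lower. No paired analysis was possible because the groups compared share no mouse numbers. With 2 SI labelled females and 14 arrays, small changes were not detectable.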
